A study of Caenorhabditis elegans with 24 samples.

Results

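Wild-type adults and wild-type late L4 larvae of the nematode Caenorhabditis elegans, both kept at 15 °C, were compared gene by gene through the rank of each gene within its own array. The 6 arrays were the 3 preparations of each group, chosen by their labels, out of 24 arrays in 8 groups. The whole series crossed genotype (wild type or daf-16(mgDF47), which carries a mutation in the gene of the forkhead transcription factor of insulin signalling), stage and temperature (15 or 25 °C), with 3 preparations per group. Adults were collected on day 3 after spending the time since late L4 at their temperature, about 120 worms to a preparation, and larvae had grown at their temperature from the embryo to late L4, about 300 worms to a preparation. The life period spent at that temperature and the number of worms therefore differed along with stage. All worms were grown on standard agar plates and whole-worm RNA was hybridised to Affymetrix Gene 1.1 ST arrays.

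The late L4 hermaphrodite is in transit from larva to adult. Its germ line has been making sperm and turns to oocytes, its epidermis builds the collagen cuticle that the adult will wear, and its vulva and muscles are being finished. The young adult no longer moults, its intestine makes yolk for the oocytes, and embryos develop inside it before they are laid, so whole-worm RNA of adults also holds maternal and embryonic transcripts. A difference in whole worms therefore does not tell apart fewer cells of a type from less RNA per cell.

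Ranks were used because the stages sat on different scales. The median log2 signal of an array lay between 3.55 and 3.63 in the adults and between 2.96 and 3.02 in the larvae, and 3 probe sets were blank on the adult arrays. Each array was therefore turned into percentile ranks from 0 to 100 over the 25481 probe sets with a single gene symbol and no blank value, which gave 25434 genes. A difference in points is the mean adult rank minus the mean larval rank. Ranks remove a difference in the shape of the distribution and not an offset particular to a gene, so for single genes stage and processing run cannot be told apart. A rank orders probe signals and not transcript numbers, and a gene already near 100 can gain few points. Ranks agreed more within a stage (Spearman correlation across genes 0.979 to 0.983 among adults and 0.965 to 0.976 among larvae) than between stages (0.833 to 0.842). The labels do not say whether preparations came from separate cultures, so p-values measure only the spread between these preparations. The median SD among the 3 arrays of a group was 0.618 points in adults and 0.785 points in larvae for genes ranked above 75, and 3.55 and 5.48 points for genes ranked below 25.

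Of the 25434 genes, 1720 (6.76%) ranked at least 20 points higher in adults with an adjusted p under 0.05 (limma, Benjamini-Hochberg), and 2218 (8.72%) ranked at least 20 points lower. These are called large differences below. With no limit on size, 8743 genes (34.4%) ranked higher in adults and 6945 (27.3%) lower, so 55.7% of calls were higher. That share was 83.9% on the log2 values as deposited, 66.4% after centring each array on its median and 55.8% after quantile normalization of all arrays. The median gene was 1.001 points higher in adults, against 0.80 log2 units higher on the deposited scale, 0.25 after centring and 0.075 after quantile normalization. The 3 adult and the 3 larval arrays did not overlap for 16269 genes (64%). The shares of all genes called are the background for every list count below.

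**Figure D1:**
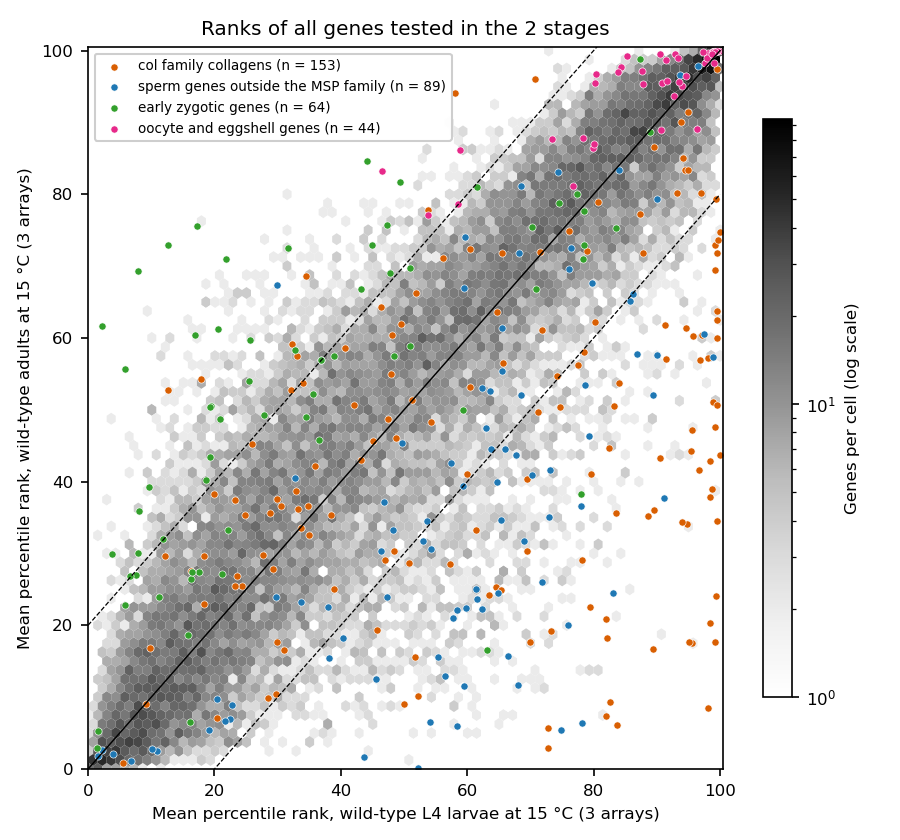
Mean percentile rank of every gene tested in the 3 larval arrays (horizontal axis) against the 3 adult arrays (vertical axis), with grey cells showing the number of genes on a log scale and coloured points the members of 4 gene lists. The dashed lines mark differences of 20 points. Many col collagens and sperm genes lie below the lower line, many early zygotic genes lie above the upper line, and most oocyte and eggshell genes sit in the top right corner.

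Among genes with family names, the largest gain was that of arrd-2, an arrestin-domain gene, which ranked 79.3, 80.8 and 78.6 in the adult arrays and 6.44, 17.4 and 2.45 in the larval arrays (70.8 ± 3.78 points, SE; adjusted p = 2.9e-13). The largest loss was that of col-133, a cuticle collagen, which ranked 6.72, 7.06 and 11.5 in adults and 98.4, 97.9 and 97.9 in larvae (-89.7 ± 2.84 points; adjusted p = 8.02e-17). A gene above rank 75 in all 3 arrays of one stage and below 25 in all 3 of the other was rare. Only arrd-2 and the C-type lectin clec-190 did so with adults high, whereas 37 genes did so with larvae high. Of those 37, 9 were col genes and 19 carried only a sequence name.

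Genes of the early embryo ranked higher in adults. The list of early zygotic genes held 64 tested genes, of which 31 were higher by a large difference and 2 lower. Many of these genes are switched on in the first cell divisions of the embryo. The list also holds genes with maternal transcripts, skn-1 (not called) and pal-1 (11.5 points), and the intestinal factor elt-2 (not called). Its median difference was 19.5 points, against 1.001 over all genes. The list's median rank was 56.1, 56.7 and 53.0 on the adult arrays and 29.1, 25.4 and 27.5 on the larval arrays. tbx-38, a T-box factor of the early embryo that acts with tbx-37 in descendants of the anterior blastomere, ranked 69.8, 71.7 and 66.4 in adults and 4.71, 7.32 and 11.7 in larvae (61.4 ± 3.32 points; adjusted p = 3.54e-13). tbx-37 itself went from a mean rank of 16.998 in larvae to 60.5 in adults. For both genes every adult array lay above rank 50 and every larval array below 30.

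The sdz genes, named as zygotic transcripts that depend on the maternal factor SKN-1, supplied 34 of the tested members, and 18 of them were higher by a large difference. sdz-9 ranked 66.4, 65.6 and 53.1 in adults and 0.361, 0.706 and 5.40 in larvae (59.6 ± 3.40 points; adjusted p = 8.64e-13). sdz-25 ranked 75.4, 77.6 and 73.6 in adults and 28.9, 13.6 and 9.25 in larvae (58.3 ± 4.43 points; adjusted p = 1.04e-10). The larval ranks of these genes lie in the range of the dimmest probe sets. The endoderm specifiers end-1 and end-3, paired GATA factors, were higher too, with mean ranks of 66.8 and 49.2 in adults and 43.1 and 27.9 in larvae. Their upstream regulators med-1 and med-2 were not called. 7 members were called lower, 2 of them by a large difference. sdz-3 ranked 16.9, 18.03 and 14.9 in adults and 63.1, 61.4 and 64.7 in larvae (-46.5 ± 3.75 points; adjusted p = 2.9e-10), and sdz-24 differed by -39.8 points. The other 5 were sdz-35 (-9.29 points), the homeobox genes ceh-13, php-3 and nob-1 (-8.25, -7.29 and -5.55) and nhr-57 (-3.95).

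Oocyte and eggshell genes were near the top of the arrays in both stages. Of 44 tested, 28 already had a mean rank of at least 90 in larvae. 33 were called higher in adults and 1, the kinase gene mbk-2, lower, but only 4 were higher by a large difference (median 3.36 points). Those 4 act in germ plasm. meg-3, which encodes a scaffold of embryonic P granules, ranked 84.7, 82.9 and 82.0 in adults and 43.6, 49.8 and 46.2 in larvae (36.6 ± 1.94 points; adjusted p = 2.49e-13). Its relatives meg-2 and meg-4 gained 27.4 and 20.1 points, and nos-2, a Nanos-related gene needed in primordial germ cells, gained 23.3.

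The yolk receptor gene rme-2, through which oocytes take up yolk, ranked 97.1, 96.6 and 97.4 in adults and 84.6, 83.1 and 83.9 in larvae (13.2 ± 1.42 points; adjusted p = 3.19e-08). mei-1, a katanin subunit of the meiotic spindle, rose from a mean rank of 84.3 to 97.8, and egg-2, which acts at fertilization, from 80.4 to 96.7. Where larval ranks were already close to 100 little could be gained. The oocyte maturation gene oma-1 differed by 1.47 ± 0.299 points (adjusted p = 0.000188), and the eggshell gene cbd-1 by 0.924 ± 0.429 points (adjusted p = 0.0675), which did not pass the test. Quantile normalization gives all arrays the same distribution, so it keeps the order of ranks and only spaces them differently near the top. On that log2 scale cbd-1 differed by 1.19 ± 0.145 units (adjusted p = 5.72e-08), which is not evidence apart from the ranks.

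Vitellogenins, the yolk proteins, showed the same ceiling. vit-3 had no probe set of its own, and 4 of the other 5 were called higher. vit-4 ranked 99.996, 99.929 and 99.878 in adults and 68.9, 78.5 and 69.5 in larvae (27.6 ± 2.48 points; adjusted p = 1.7e-09). vit-1 ranked 96.2, 95.3 and 95.9 in adults and 70.8, 76.5 and 72.1 in larvae (22.7 ± 1.88 points; adjusted p = 4.36e-10). vit-2 gained 3.98 points and vit-5 2.14 from larval means of 96.0 and 97.8. vit-6, at 98.8 in larvae and 99.8 in adults, was not called by rank (adjusted p = 0.0866), while on the quantile-normalized log2 scale it was 0.79 units higher (adjusted p = 0.000101). The vit-3, vit-4 and vit-5 sequences are close copies, so their separate values are uncertain.

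Genes of meiosis and cell division were higher in adults, by few points from larval ranks that were already high. Of 31 meiosis genes 28 were called higher and none lower, with a median of 6.60 points. htp-1, which encodes a HORMA-domain protein of meiotic chromosome axes, was the only large one, with ranks of 89.3, 86.1 and 85.3 in adults and 49.3, 52.4 and 54.1 in larvae (34.9 ± 2.26 points; adjusted p = 7.11e-12). Its close paralog could share probes, so this value is uncertain. The synaptonemal complex genes syp-1 and syp-4 and the crossover gene zhp-3 were not called. Of 46 DNA replication and cell division genes, 35 were higher and 4 lower (median 3.31 points). On the quantile-normalized log2 scale the medians were 0.91 log2 units for the meiosis list and 0.79 for the replication and division list, beside 0.85 for the early zygotic list and 0.075 for all genes. The B-type cyclin gene cyb-2.2 gained 23.9 points, from 65.7, 64.6 and 63.0 to 88.1, 88.9 and 88.0.

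Sperm genes ranked lower in adults. Of 89 sperm genes outside the MSP family, 46 were lower by a large difference and 2 higher, and the median was -20.6 points. The list's median rank was 34.3, 32.5 and 35.7 on the adult arrays and 63.0, 61.7 and 62.5 on the larval arrays. Of the spe genes, found by mutants with defective sperm, 20 of 32 tested were lower by a large difference and none higher. spch-3, which encodes a basic protein of sperm chromatin, ranked 5.26, 6.22 and 4.86 in adults and 75.2, 71.3 and 77.8 in larvae (-69.3 ± 4.55 points; adjusted p = 9.2e-12). ssq-2, of a sperm-specific family, ranked 8.31, 4.49 and 6.38 in adults and 77.6, 77.5 and 79.3 in larvae (-71.7 ± 2.46 points; adjusted p = 2.35e-16). Every adult array of both genes lay near the bottom of the scale and every larval array above the median gene.

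The sperm phosphatase gene gsp-3 ranked 47.9, 59.4 and 48.9 in adults and 87.2, 88.9 and 91.8 in larvae (-37.2 ± 3.88 points; adjusted p = 1.85e-08). fer-1, needed for fusion of the sperm's membranous organelles, differed by -31.5 ± 3.12 points (adjusted p = 8.44e-09). spe-9, whose product sperm need to fertilize the oocyte, differed by -14.8 ± 3.46 points (adjusted p = 0.000767). fog-1 and fog-3, which commit germ cells to the sperm fate, were called higher in adults, from mean ranks of 68.5 and 59.6 in larvae to 81.1 and 74.0, and spe-44, a transcription factor of the spermatocyte programme, was not called (mean ranks of 84.0 in larvae and 83.4 in adults). The 2 large gains in the list were those of ssp-37 (37.6 points) and try-5 (20.1 points), a protease gene of male seminal fluid.

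The major sperm proteins, which form the sperm's motile cytoskeleton, had 4 probe sets with a single symbol, and all were called lower in adults. msp-78 ranked 15.4, 17.4 and 6.84 in adults and 93.9, 95.1 and 96.0 in larvae (-81.8 ± 6.56 points; adjusted p = 2.58e-10). msp-33 differed by -66.2 points, msp-38 by -50.8 and msp-3 by -18.6. Copies of this family are nearly identical, so the value of a single member is uncertain and the family's direction is better read from all 4. The Argonaute genes alg-3 and alg-4, which serve the male germ line, were lower as well. alg-3 ranked 41.0, 51.7 and 49.6 in adults and 72.2, 72.0 and 73.5 in larvae, and alg-4 differed by -23.6 ± 2.24 points (adjusted p = 4.08e-09). Of the 30 germ granule and Argonaute genes as a whole, 14 were higher and 8 lower (median 1.06 points), beside 34.4% and 27.3% of all genes. The piRNA Argonaute prg-1 was called higher, at 99.1 in adults and 97.2 in larvae.

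**Figure D2:**
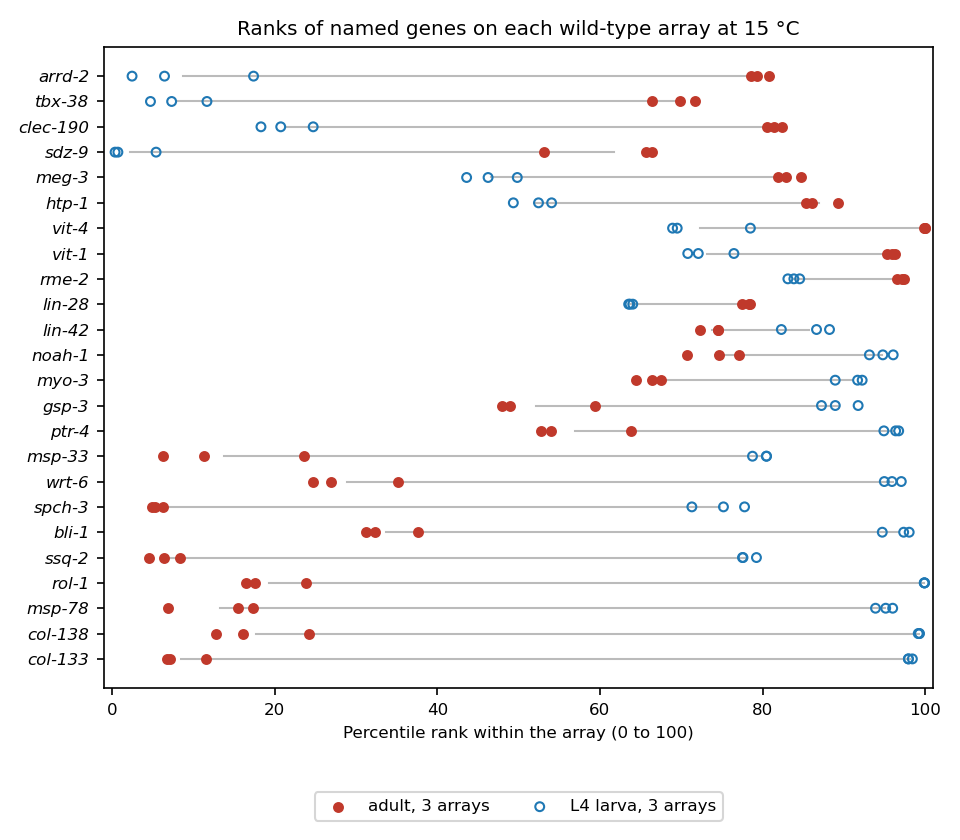
Percentile ranks of 24 named genes on each of the 6 wild-type arrays at 15 °C, with filled red points for the 3 adult arrays, open blue points for the 3 larval arrays and a grey line joining the group means. The adult and larval points of each gene shown do not overlap. Some of the genes were chosen by a rule that requires this, and it held for 64% of all genes. The genes from arrd-2 down to lin-28 have adults on the right, and the genes from lin-42 down to col-133 have larvae on the right.

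Collagen genes of the cuticle ranked lower in adults. Of 153 col collagen genes, 70 were lower in adults by a large difference and 9 higher, with a median of -18.03 points. Of 20 other collagens in the body-shape list, 13 were lower by a large difference and 1 higher (median -34.9 points). That list also holds mec-5, a collagen of touch sensation (-8.405 points). col-138 ranked 12.72, 16.13 and 24.2 in adults and 99.2, 99.3 and 99.3 in larvae (-81.6 ± 2.17 points; adjusted p = 7.74e-18). rol-1, named for the rolling gait of its mutants, ranked 16.475, 17.5 and 23.8 in adults and 99.882, 99.933 and 99.914 in larvae (-80.6 ± 2.17 points; adjusted p = 8.67e-18). Both therefore went from the very top of the larval arrays to below rank 25 on each adult array.

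bli-1 and bli-2 encode collagens of the struts that join the layers of the adult cuticle. bli-1 ranked 32.4, 31.2 and 37.6 in adults and 94.7, 98.0 and 97.4 in larvae (-63.0 ± 3.24 points; adjusted p = 1.64e-13). bli-2 differed by -65.1 ± 4.10 points and bli-6 by -71.3 ± 3.17. Some collagens ranked higher in adults instead. col-101 ranked 93.5, 94.7 and 94.3 in adults and 56.1, 60.8 and 57.5 in larvae (36.02 ± 2.19 points; adjusted p = 2.49e-12), and dpy-14, known as a collagen of the embryo, gained 35.9 points from larval ranks of 18.9, 20.3 and 12.5. col-116, col-121 and col-135 gained 40.2, 36.4 and 34.1 points.

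col-19 and col-7, used as reporters of the adult cuticle, also ranked lower in day 3 adults than in late L4 larvae. col-19 ranked 86.4, 83.5 and 85.1 in adults and 95.2, 94.7 and 92.6 in larvae (-9.17 ± 1.05 points; adjusted p = 7.64e-08). The difference was 0.0089 log2 units on the deposited scale, where the median gene was 0.80 higher. col-7 ranked 95.8, 97.6 and 98.9 in adults and 99.6, 99.5 and 99.5 in larvae (-2.05 points; adjusted p = 0.00534). Without adult preparation 1 it was no longer called (-1.24 points; adjusted p = 0.0654).

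Moulting and apical matrix genes were lower in adults for 37 of 48 tested members and higher for 4, with 18 and 1 of these large (median -11.997 points). ptr-4, a patched-related gene needed to shed the old cuticle, ranked 63.9, 52.8 and 54.03 in adults and 94.9, 96.4 and 96.7 in larvae (-39.1 ± 1.79 points; adjusted p = 2.31e-14). noah-1, a protein of the temporary matrix between old and new cuticle, ranked 77.1, 74.7 and 70.7 in adults and 93.1, 96.1 and 94.8 in larvae (-20.5 ± 1.25 points; adjusted p = 2.67e-12). bli-5, a protease inhibitor gene, differed by -53.1 points and the lipocalin gene lpr-3 by -17.4. nhr-23, the nuclear receptor that drives each moult, was not called (90.4 to 92.1 in adults and 91.2 to 92.1 in larvae; adjusted p = 0.561). On quantile-normalized log2 values it was not called either (-0.080 units, adjusted p = 0.574). It was called higher by 1.45 log2 units on the deposited scale (adjusted p = 2.18e-11) and by 0.90 after centring (adjusted p = 3.72e-07). The median gene was 0.80 and 0.25 higher on those scales. The cuticlin cut-3 was the large gain (27.2 ± 6.02 points; adjusted p = 0.000443), with wide adult ranks of 42.4, 58.5 and 52.8.

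Hedgehog-related and patched-related genes, many of which are secreted by or act in the epidermis, had 27 large losses and 4 large gains among 84 (median -9.61 points). wrt-6, a warthog gene, ranked 35.2, 26.9 and 24.8 in adults and 94.98, 95.9 and 97.1 in larvae (-67.05 ± 4.40 points; adjusted p = 8.91e-12). grd-2 and grl-5 differed by -60.2 and -60.1 points. Astacin metalloproteases had 14 large losses and 3 large gains among 39, with a median of -12.05 points that became 0.12 log2 units on the deposited scale, still below the 0.80 of all genes. nas-7 ranked 50.1, 45.8 and 49.99 in adults and 89.1, 88.4 and 90.4 in larvae (-40.7 ± 1.17 points; adjusted p = 1.83e-17). The moulting astacins nas-36 and nas-37 went from mean ranks of 74.7 and 85.5 in larvae to 49.4 and 73.5 in adults.

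Muscle genes were lower in adults almost throughout. Of 31 body wall muscle genes 29 were called lower, 4 of them by a large difference, and hlh-1, the muscle determination factor, alone was higher (median -12.006 points). myo-3, the minor myosin heavy chain, ranked 64.5, 66.4 and 67.5 in adults and 88.9, 91.7 and 92.3 in larvae (-24.8 ± 1.70 points; adjusted p = 1.8e-11). The myosin light chain gene mlc-1 differed by -24.6 ± 0.838 points and the troponin I gene tni-1 by -22.1 ± 0.697. unc-54, the major myosin heavy chain, kept a high rank in adults at 91.8, 91.9 and 92.2, against 99.5, 99.7 and 99.7 in larvae (-7.67 points). Only pat-6, a muscle attachment gene, was called in neither direction. In the pharynx, 12 of 18 genes were lower and 2 higher (median -7.87 points), and the pharyngeal myosins myo-1 and myo-2 went from mean ranks of 88.9 and 87.3 in larvae to 65.5 and 65.6 in adults.

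Neuropeptide genes also tended to be lower. Of 31 FMRFamide-like genes 23 were lower and 1 higher (median -9.10 points), and of 82 other neuropeptide-like genes 43 were lower and 10 higher (median -6.38). flp-20 ranked 21.4, 25.7 and 30.4 in adults and 57.96, 56.999 and 57.5 in larvae (-31.7 ± 2.66 points; adjusted p = 5.42e-10). nlp-29, an antimicrobial peptide gene of the epidermis, ranked 18.8, 3.54 and 3.85 in adults and 52.7, 50.96 and 61.9 in larvae (-46.5 ± 5.84 points; adjusted p = 3.39e-07). Pan-neuronal genes had 15 losses and 4 gains among 29. Their median of -3.32 points became 0.15 log2 units on the deposited scale, where all genes were 0.80 higher. The 2 large losses were of peptide-processing and dense-core vesicle genes. egl-3, a proprotein convertase, ranked 76.7, 77.3 and 77.5 in adults and 96.7, 97.2 and 97.5 in larvae (-20.007 ± 0.701 points; adjusted p = 3.28e-16), and ida-1 differed by -28.3 points. The synaptic vesicle gene rab-3 differed by -3.32 points, and by 0.29 log2 units on the deposited scale.

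Intestinal genes tended to be lower. Of 30 tested, 16 were lower and 4 higher, beside 27.3% and 34.4% of all genes, with a median of -1.73 points. That median was 0.36 log2 units on the deposited scale, below the 0.80 of all genes, and -0.53 after quantile normalization. mtl-1, a metallothionein, was the only large change, from larval ranks of 30.7, 33.4 and 23.3 to 67.9, 72.5 and 73.0 in adults (42.0 ± 4.53 points; adjusted p = 3.19e-08). elt-2, the main transcription factor of the intestine, was not called (adjusted p = 0.495) but was 0.88 log2 units higher on the deposited scale (adjusted p = 8.7e-06), where all genes were 0.80 higher. The esterase gene ges-1 was not called by rank. The brush-border genes act-5 and ifb-2 were lower, from mean ranks of 99.0 and 95.9 in larvae to 92.4 and 84.5 in adults.

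Timing genes of the heterochronic pathway, which order larval cell fates, had 15 tested members, of which 10 were lower and 3 higher (median -5.001 points). On the deposited scale the median was 0.52 log2 units, where all genes were 0.80 higher. The miRNA genes lin-4 and let-7 and the transcription factor gene lin-29 had no probe set of their own. lin-28, which holds back later fates in early larvae, ranked 77.5, 78.3 and 78.4 in adults and 63.7, 64.04 and 63.5 in larvae (14.3 ± 1.01 points; adjusted p = 3.03e-11). lin-41, the let-7 target that also acts in oocytes, differed by 5.53 ± 1.67 points (adjusted p = 0.00641), and hbl-1 rose from a mean rank of 68.5 to 76.4. lin-42, the Period-related gene whose transcript cycles with the moults, ranked 74.6, 74.5 and 72.3 in adults and 82.3, 88.2 and 86.6 in larvae (-11.9 ± 2.04 points; adjusted p = 2.38e-05). lin-46, which acts downstream of lin-28, was the only large loss (-25.7 ± 4.33 points; adjusted p = 1.96e-05), on adult ranks spread from 9.24 to 29.8, and was not called on the deposited log2 scale (-0.25 units; adjusted p = 0.195). lin-14 differed by -5.001 points, and by 0.33 log2 units on the deposited scale.

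Vulval genes split. Of 36 tested, 19 were higher and 12 lower (median 3.15 points), beside 34.4% and 27.3% of all genes. egl-17, the growth factor gene of vulval precursor cells, ranked 48.3, 46.6 and 36.4 in adults and 64.9, 65.8 and 67.1 in larvae (-22.2 ± 2.54 points; adjusted p = 8.31e-08). The homeobox gene cog-1 and the junction gene ajm-1 were lower too, from mean ranks of 89.2 and 96.3 to 73.4 and 81.3. hlh-2, the E-protein partner of many bHLH factors, ranked 82.9, 83.6 and 82.4 in adults and 52.2, 50.3 and 51.3 in larvae (31.7 ± 1.49 points; adjusted p = 3.89e-14). All 8 sqv genes, which make the glycosaminoglycans of the vulva and eggshell, were called, 7 higher and sqv-4 lower.

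**Figure D3:**
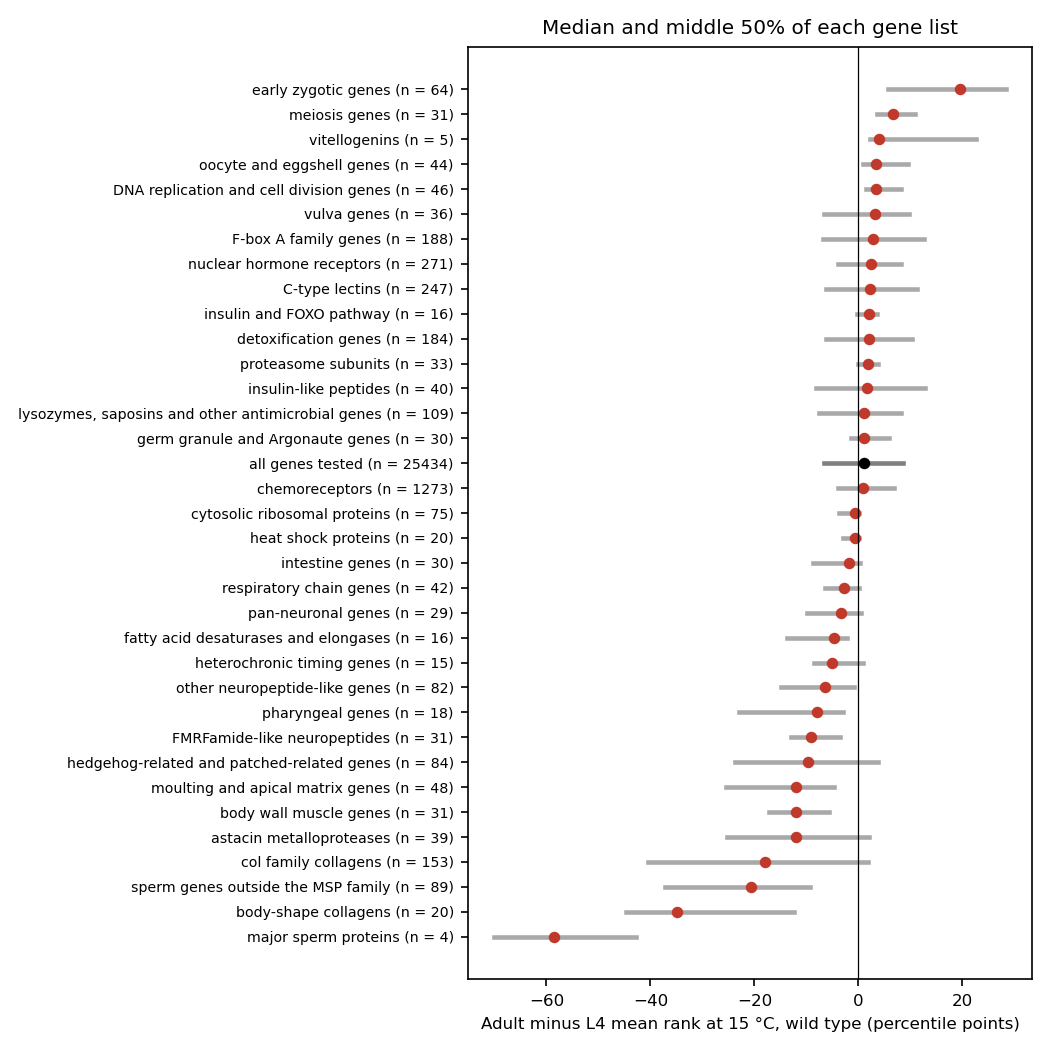
Median difference of adult minus larval rank in percentile points (points) and the middle 50% of members (bars) for 34 gene lists and for all 25434 genes tested (black). The MSP genes lie lowest at -58.5 and the early zygotic genes highest at 19.5, and all genes sit at 1.001. On the deposited log2 scale the medians of the astacin, timing, ribosomal, respiratory chain, pan-neuronal, intestine, fatty acid and heat shock lists are above 0. Each of them is below the 0.80 of all genes on that scale.

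Genes of general cell function differed by few points. On the quantile-normalized log2 scale the medians were -0.48 units for ribosomal, -0.59 for respiratory chain and 0.56 for proteasome genes. That of heat shock genes was -0.24, and that of all genes 0.075. On the deposited scale, also given below, all genes were 0.80 units higher. Of 75 genes in the cytosolic ribosomal list 37 were lower and 8 higher (median -0.57 points, 0.38 log2 units on the deposited scale). These counts include rpa-1, rpa-2 and rpa-4, which are genes of replication protein A and not of the ribosome. Among them rpa-2 was called higher (13.7 points), and rpa-1 and rpa-4 were not called. In the list rpl-23 alone was lower by a large difference, from 89.985, 90.9 and 90.04 in larvae to 70.6, 69.4 and 70.5 in adults. Of 33 proteasome genes 21 were higher and 4 lower (median 1.81 points). Respiratory chain genes were lower for 26 of 42 and higher for 6 (median -2.68 points, 0.50 log2 units on the deposited scale). The exception in size was cyc-2.2, a second cytochrome c gene, at 40.2, 27.6 and 34.2 in adults and 82.4, 82.0 and 80.0 in larvae (-47.5 ± 3.33 points; adjusted p = 2.79e-11). Heat shock genes had no large change (median -0.71 points, 0.46 log2 units on the deposited scale). Among 20, 4 were higher and 8 lower, beside 34.4% and 27.3% of all genes.

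Fatty acid desaturase and elongase genes were lower for 10 of 16 and higher for 2 (median -4.77 points). On the deposited scale the median was 0.15 log2 units, below the 0.80 of all genes. elo-7 and elo-8, putative elongases, stood apart from the rest. elo-7 ranked 11.6, 12.26 and 9.84 in adults and 72.3, 72.1 and 74.2 in larvae (-61.6 ± 3.999 points; adjusted p = 7.54e-12), and elo-8 differed by -59.1 ± 3.03 points. The desaturase gene fat-7 was not called, at mean ranks of 96.0 in adults and 98.6 in larvae. Among 16 genes of insulin signalling around the FOXO factor, 6 were higher, 3 lower and none by a large difference (median 2.004 points). daf-16 ranked 96.2, 96.9 and 97.2 in adults and 94.8, 94.6 and 94.9 in larvae (adjusted p = 0.0972), and in the mutant its mean rank was 84.8 in adults and 79.7 in larvae at the same temperature. In the limma fit of the 6 wild-type arrays alone the adjusted p of daf-16 was 0.0011.

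The 40 insulin-like peptide genes had 15 members called higher and 11 lower, shares near the 34.4% and 27.3% of all genes, and their median stood 0.59 points above all genes but 0.057 log2 units below on the deposited scale. ins-23 ranked 84.7, 89.8 and 88.2 in adults and 47.2, 43.3 and 43.4 in larvae (42.95 ± 2.65 points; adjusted p = 3.23e-12). ins-37 ranked 40.4, 33.3 and 36.1 in adults and 75.2, 71.9 and 71.9 in larvae (-36.4 ± 2.19 points; adjusted p = 2.14e-12). The members therefore differed from one another far more than the list differed from all genes. ins-34, ins-22 and ins-29 were the next gains (26.9, 24.5 and 23.04 points), and ins-9, ins-35 and ins-30 the next losses (-24.1, -23.4 and -23.3).

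C-type lectins had 25 large gains (10.1%) and 24 large losses (9.72%) among 247, against 6.76% and 8.72% of all genes. clec-266 ranked 75.05, 75.4 and 73.1 in adults and 17.9, 10.1 and 9.33 in larvae (62.1 ± 3.57 points; adjusted p = 9.91e-13). clec-153 ranked 10.8, 8.04 and 17.5 in adults and 67.7, 73.0 and 68.6 in larvae (-57.7 ± 3.87 points; adjusted p = 1.3e-11). Lysozyme, saposin and other antimicrobial genes had 9 large changes each way among 109 (8.26%), near those shares of all genes. cnc-11, a caenacin, gained 45.0 points, the defensin-like abf-1 gained 37.6, and the saposin-like spp-13 differed by -49.0.

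Detoxification genes had 24 large gains and 5 large losses among 184, against 6.76% and 8.72% of all genes. The list's median stood only 1.002 points above all genes and 0.074 log2 units below them on the deposited scale. gst-16, a glutathione transferase, ranked 67.5, 68.7 and 68.7 in adults and 14.2, 27.2 and 23.6 in larvae (46.6 ± 4.15 points; adjusted p = 1.42e-09). The cytochrome P450 gene cyp-13B2 gained 45.8 ± 2.79 points, and ugt-6, a glucuronosyltransferase gene, differed by -23.5 ± 1.06. Nuclear hormone receptors had 10 large gains (3.69%) and 6 large losses (2.21%) among 271, below those shares of all genes. F-box A genes had 21 (11.2%) and 19 (10.1%) among 188. The medians of these families were 1.37 and 1.72 points above all genes, and 0.010 and 0.069 log2 units below on the deposited scale. fbxa-170 ranked 82.0, 80.3 and 79.0 in adults and 10.1, 20.6 and 30.9 in larvae (59.9 ± 4.32 points; adjusted p = 4.37e-11), while fbxa-202 ranked 9.67, 5.90 and 8.58 in adults and 62.0, 67.9 and 67.2 in larvae (-57.7 ± 3.07 points; adjusted p = 2.79e-13).

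Chemoreceptors, each active in few cells, serve as a gauge of dim probe sets. Of 1273 tested, 48 were higher and 17 lower by a large difference, which is 3.77% and 1.34% of them against 6.76% and 8.72% of all genes, and 90% of them lay at or below rank 35.6 in adults and 31.1 in larvae. At such ranks a small step in signal moves a gene by many points, and 10% of the chemoreceptors differed by more than 16.18 points. A few lay well above that range in 1 stage. srh-16 ranked 64.4, 63.3 and 61.1 in adults and 7.34, 12.96 and 11.5 in larvae (52.3 ± 2.53 points; adjusted p = 5.69e-14), and srd-7 ranked 14.1, 12.5 and 8.27 in adults and 56.1, 61.8 and 62.3 in larvae (-48.4 ± 2.77 points; adjusted p = 8.77e-13).

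The same stage difference was measured in 3 further pairs of groups that share no array with these 6: daf-16(mgDF47) at 15 °C, wild type at 25 °C and daf-16(mgDF47) at 25 °C. Large gains numbered 1759 (6.92%), 1672 (6.57%) and 1692 (6.65%) in those pairs, and large losses 2306 (9.07%), 2057 (8.09%) and 2121 (8.34%). Of the 1720 large gains here, 1279 (74.4%) were also large gains in the mutant at 15 °C, which is 72.7% of the mutant's own. Of the 2218 large losses 1950 (87.9%) were shared with that pair (84.6% of the mutant's). At 25 °C the wild type shared 1139 gains (66.2% of those at 15 °C and 68.1% of its own) and 1720 losses (77.5% and 83.6%). In all 4 pairs 927 genes were large gains and 1544 large losses, and no gene with a large difference here had a large one in the other direction in any of the 3 pairs. The stages sat on different scales in each of these pairs too, so their sharing does not separate stage from processing run.

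**Figure D4:**
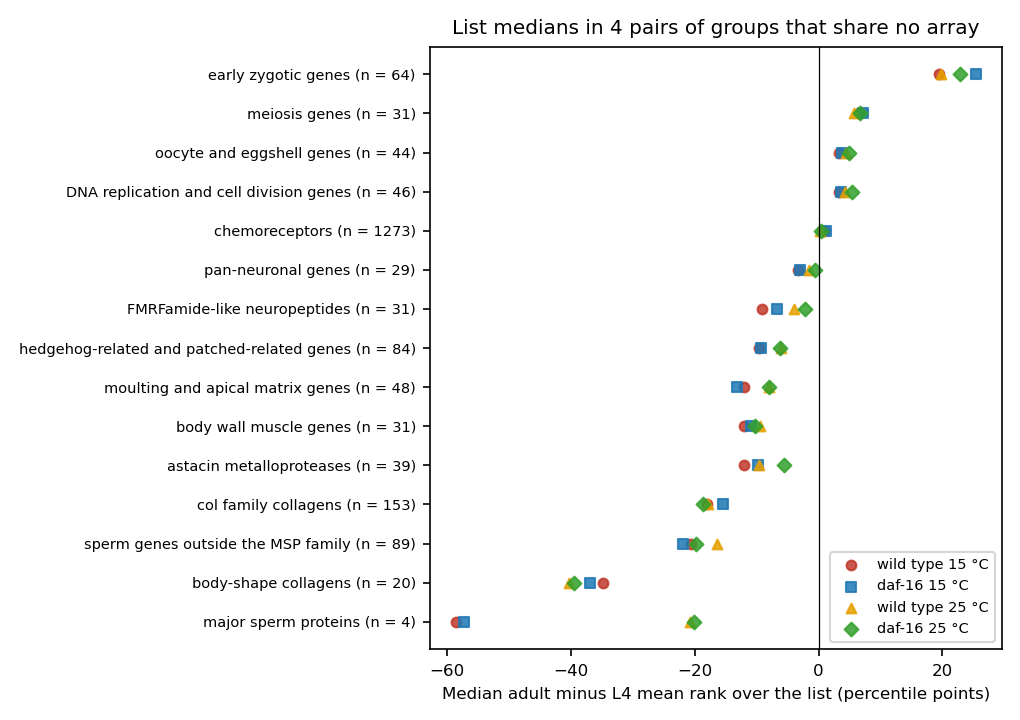
Median adult minus larval rank in percentile points for 15 gene lists in wild type at 15 °C (red circles), daf-16 at 15 °C (blue squares), wild type at 25 °C (orange triangles) and daf-16 at 25 °C (green diamonds), with all 4 pairs made of separate arrays. The MSP list stands at -58.5 and -57.4 at 15 °C and at -20.8 and -20.1 at 25 °C. The pan-neuronal list is negative in all 4 pairs by rank. On the deposited log2 scale in wild type at 15 °C it is above 0 but below the 0.80 of all genes.

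Early zygotic genes had medians of 25.4 points in the mutant at 15 °C, 19.7 in wild type at 25 °C and 22.8 in the mutant at 25 °C, beside the 19.5 given above. For the col genes the medians were -15.4, -17.9 and -18.7, and for body wall muscle genes -10.8, -9.49 and -10.3. MSP genes moved less at 25 °C. msp-78 differed by -58.6 points in the mutant at 15 °C, by -17.6 in wild type at 25 °C and by -20.9 in the mutant at 25 °C. Its mean rank in wild-type adults was 13.2 at 15 °C and 77.7 at 25 °C, while larvae stood at 95.02 and 95.4. Some moulting genes followed a similar order: noah-1 differed by -20.5 points at 15 °C and -3.74 at 25 °C in wild type, and lpr-3 by -17.4 and 0.505. Others went the other way. The moulting astacin nas-36 differed by -25.3 points at 15 °C and by -32.2 at 25 °C in wild type. The median of the moulting and apical matrix list was -11.997 points at 15 °C and -8.04 at 25 °C in wild type. Whether the stage difference itself differs between temperatures was not tested.

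The difference of the stage difference between genotypes at 15 °C was tested in the same fit, and 10 genes (0.0393%) passed. ZC84.7 was the only one to differ by at least 20 points (0.00393% of genes). Its mean rank was 64.9 in wild-type adults and 33.9 in mutant adults, and 7.21 and 7.73 in the larvae (31.5 ± 5.11 points; adjusted p = 0.0144). The collagen gene col-38 was lower in adults by rank in both genotypes, by -35.8 points in wild type and -48.5 in the mutant. The muscle genes lev-11 (tropomyosin) and mup-2 (troponin T) were further below their larval rank in wild type, by -12.006 against -8.71 points and -17.9 against -12.9. The count depended on single arrays. It was 6 without daf-16 larval preparation 2, 19 without wild-type larval preparation 3 and 35 without daf-16 adult preparation 1.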

How the data were processed

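The deposited log2 values were made by the authors with RMA (background correction, normalization between arrays and summary of the probes of a gene), per the submitters' processing notes. How RMA was set, its version and whether it ran on both stages together are not stated in the labels. All 29317 probe sets were looked up in the platform table, where 25484 had 1 gene symbol, 700 several and 3133 none. After 3 blank probe sets, 25481 were ranked within each array from 0 to 100. For 41 genes with several probe sets only the brightest on average entered, so that 25434 genes were tested, with no filter on dim ones.

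Group means of all 8 groups were fitted over the 24 arrays with limma 3.58.1 in R 4.3.3 (lmFit, contrasts.fit and eBayes with a trend; 16 residual and 5.56 prior degrees of freedom). Adjusted p-values are two-sided, by Benjamini-Hochberg over all 25434 genes of a comparison, and a gene was called under 0.05, by a large difference also at 20 points or more. The 5 comparisons were the stage difference in 4 pairs of groups and its difference between genotypes at 15 °C. The number of arrays limits the precision.

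The comparison, the 34 lists and the choice of named genes were made with earlier results of these data known, so counts and medians of lists are descriptions and carry no test of their own. The rule names sentinel genes of stage and tissue, the 15 largest differences each way among family-named genes called large whose arrays do not overlap, and up to 4 members of each list each way. Other list members given by their mean rank were chosen after their values were seen. 16 of the 3427 listed genes are in more than 1 list.

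Same-numbered preparations of the 2 stages deviated together hardly at all (correlations of deviations from group means 0.029, 0.067 and 0.021), and no label says that a number marks a shared batch, so numbers were not used as pairs. Alternatives changed the scale, the genes ranked, the filter on dim genes, the samples in the fit, the variance model, the size limit and the probe set of a gene, and left out each array in turn. No sequences were used.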

Additional observations from a re-analysis of the deposited data

Results flagged for a closer look

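The stage difference in wild type minus that in daf-16(mgDF47) at 15 °C passed the test for 10 genes (limma, adjusted p under 0.05). It was 31.5 points for ZC84.7, 12.66 for the collagen gene col-38, 7.77 for the glucuronosyltransferase gene ugt-64 and 1.96 for the ribosomal protein gene rps-27. It was -9.84 points for scpl-1, -8.94 for tcl-2, -8.92 for F13B6.3, -7.63 for gmap-1, -4.96 for mup-2 and -3.30 for lev-11. For scpl-1 the wild type differed by 0.767 points between stages and the mutant by 10.6 (adjusted p of the difference 5.32e-06).

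The 3833 probe sets without a single gene symbol were ranked with all others in a separate fit. 256 (6.68%) were higher in adults by a large difference and 275 (7.17%) lower. The 2 among them that name only msp genes were both lower, by -36.6 and -34.97 points, from a median rank of 97.8 in larvae to 61.4 in adults.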

How the results depend on the processing

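The large gains and large losses counted for wild type at 15 °C were 3198 and 3478 on normal scores of the ranks (limit 0.5), 5833 and 3345 on log2 values centred on array medians and 4351 and 3855 on quantile-normalized log2 values (limit of 1 log2 unit for each log2 scale). On the log2 values as deposited there were 10246 large gains, and calls of any size were 18422 higher and 3523 lower. With genes of mean rank 40 or more there were 997 large gains. A limit of 10 points gave 5172 and 4564, and of 30 points 575 and 1187. In daf-16 at 15 °C these counts were 3333 and 3556 (normal scores), 10624 gains (as deposited), 6039 gains (centred), 4390 and 4010 (quantile), 1026 and 1515 (rank filter), 5321 and 4648 (10 points) and 631 and 1238 (30 points). In wild type at 25 °C they were 3059 and 3279, 9802 gains, 5350 and 3246, 4030 and 3724, 948 and 1321, 4755 and 4445, and 639 and 977 in the same order, with centring giving both directions. In daf-16 at 25 °C they were 3129 and 3440, 10055 gains, 5690 and 3221, 4124 and 3823, 965 and 1383, 4908 and 4553, and 682 and 1102. The limits in points, log2 units and scores do not match each other by construction, and the rank filter tests fewer genes.

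The 10 genes of the difference between genotypes became 50 as deposited, 55 centred, 37 quantile normalized, 52 with the rank filter, 6 without the trend and 45 with array weights; the cause was not tested. Leaving out 1 array at a time gave 6 to 35 genes there, with 35 without daf-16 adult preparation 1, 19 without wild-type larval preparation 3 and 6 without daf-16 larval preparation 2. For wild type at 15 °C it gave 1718 to 1802 large gains, 2209 to 2334 large losses, 8201 to 8408 higher and 6513 to 6735 lower. In the other pairs it gave 1759 to 1815 and 2320 to 2331 (daf-16 at 15 °C), 1641 to 1747 and 2013 to 2144 (wild type at 25 °C) and 1700 to 1757 and 2135 to 2170 (daf-16 at 25 °C).

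With the preparation number as a replicate block in the 6 arrays alone, 8110 genes were higher and 6404 lower, 1720 and 2217 by a large difference. The numbers are not shown to pair the samples.

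Over all alternatives, 3175 values of named genes kept direction and side of the threshold, 21 passed it anew, 6 no longer passed and 6 turned direction. Those that turned did so on the log2 values as deposited (col-19 0.0089, elt-2 0.88, lin-14 0.33, nhr-23 1.45 and rab-3 0.29) or centred (nhr-23 0.90), scales on which the median gene was 0.80 and 0.25 higher; relative to that median nhr-23 and elt-2 were above it and the others below it on the deposited scale. On quantile-normalized log2 values nhr-23 (-0.080 units) and elt-2 (-0.11) were not called. cbd-1, vit-6 and daf-16, not called by rank over all arrays, were called on each log2 scale, on normal scores and in the fit of the 6 arrays alone. Among genes of mean rank 40 or more, the median of the insulin-like list was -0.32 points and of the antimicrobial list -1.14, and that of the chemoreceptors 8.19. lin-46, nhr-259 and col-7 were not called on the deposited scale. The spread between arrays was wider below rank 50 than above it in both stages, which limits what dim genes can show.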

Other observations

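Some families grouped by gene name, picked after their values were seen and so given as descriptions with no test, held many large differences. Of 108 fbxb genes, F-box genes of a family expanded in nematodes, 63 (58.3%) ranked higher in adults by a large difference and 1 lower, with a median of 22.4 points and median ranks of 41.0 in adults and 13.2 in larvae. The larval median lies among dim probe sets, where a small step in signal moves a gene by many points. The fbxb median was 28.8 points in daf-16(mgDF47) at 15 °C and 27.6 in wild type at 25 °C. fbxb-103 ranked 71.2, 73.8 and 65.9 in adults and 17.5, 18.3 and 0.565 in larvae, and fbxb-41 gained 56.2 points. Large gains were also found for 14 of 44 fbxc genes, 8 of 20 skr genes (Skp1-related partners of F-box proteins), 11 of 34 bath genes and 14 of 64 ceh homeobox genes. Over all genes the share of large gains was 6.76%. Of the ceh genes, ceh-13, ceh-22 and ceh-51 are also in a list described above, and ceh-40 ranked 73.9, 74.5 and 73.0 in adults and 18.1, 24.1 and 10.3 in larvae.

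On the lower side, 7 of 14 abu genes, 7 of 14 bus genes, 9 of 18 dbd genes and 9 of 26 nep (neprilysin) genes ranked lower in adults by a large difference. Over all genes the share of large losses was 8.72%. mam-2 ranked 5.49, 5.23 and 9.37 in adults and 86.4, 87.6 and 89.1 in larvae (-81.0 ± 4.01 points; adjusted p = 8.35e-14).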
